A study of Homo sapiens with 33 samples.

Results

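CCND1, CCND2 and CCND3 encode the D-type cyclins D1, D2 and D3, and CDK4 and CDK6 encode the kinases that these cyclins activate. These genes were read as the matrix rows with those gene names, which gave 5 of 58302 genes, and all 5 passed the filter on low values that left 17803 genes. The RNA-seq data came from 6 established cell lines. The palbociclib-sensitive lines NCI-H2052 (H2052), H2452, H28 and MSTO-211H come from malignant pleural mesothelioma, as does the resistant MPP89, in which RB1 is mutated. The other resistant line, MeT-5A, was made from normal mesothelium with SV40. There were 14 libraries of cells kept in 0.1 % DMSO, 14 of cells kept in 1 µM palbociclib for 9 to 10 days, 4 of sensitive lines 48 h after drug removal (washout) and 1 of untreated MeT-5A cells. The DMSO and palbociclib libraries formed 2 pairs in H2052, 3 in H2452, 3 in H28, 3 in MSTO-211H, 2 in MPP89 and 1 in MeT-5A, each pair from 1 experiment, and each sensitive line had 1 washout library. Each line is a single culture model, so that 2 resistant lines, both with an altered pRb pathway, stand for resistance here.

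Mitogens raise the D-type cyclins in the G1 phase of the cell cycle. The cyclins bind CDK4 or CDK6, and the active complexes phosphorylate pRb, the product of RB1, which releases E2F transcription factors and opens the way to S phase. Palbociclib occupies the ATP pocket of CDK4 and CDK6, and p16, the product of CDKN2A that is often lost in mesothelioma, binds the same kinases and keeps cyclin D away.

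Values are CP20M, the reads of a gene scaled by the authors to a common library size (column totals of 20007662 to 20021400) and rounded up, and changes are differences of log2(CP20M + 10), which understate the change of low genes. A gene was called when its limma FDR was under 0.05 and its fold change above 1.5. MKI67, a marker of cycling cells, had between 0.0219 and 0.377 of its DMSO value after palbociclib in the 11 sensitive pairs and between 0.992 and 1.11 of it in the 3 resistant pairs. The part of this loss of cycling in the changes below was not tested. Mesothelial markers were uneven, with MSLN at a mean of at least 100 CP20M in 5 of 6 lines but at 1 to 9 in H28, and WT1 in 5 of 6 but at 0 to 2 in MeT-5A. The other mesothelial markers reached that mean in fewer lines, KRT19 in 3, PDPN in 3, CALB2 in 2 and UPK3B in 1, and KRT19 was at 0 to 13 CP20M in the controls of MSTO-211H, MPP89 and MeT-5A. Markers of leukocytes, endothelium, epithelium and muscle (PTPRC, PECAM1, EPCAM, DES) reached that mean in 0 lines. Judged from the low whole numbers that a scaled library skips, 23 libraries held an estimated 12770000 to 19830000 reads, and 10 libraries skipped none.

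The genes lie on separate chromosomes except for CCND2 and CDK4. In GRCh38 with GENCODE 44, CCND1 (ENSG00000110092) spans chr11:69641156-69654474 on the plus strand, CCND2 (ENSG00000118971) chr12:4269771-4305353 on the plus strand, CCND3 (ENSG00000112576) chr6:41934934-42050357 on the minus strand, CDK4 (ENSG00000135446) chr12:57747727-57756013 on the minus strand and CDK6 (ENSG00000105810) chr7:92604921-92836573 on the minus strand. The RefSeq promoter table (GRCh38.p14) held 3 of the 5 genes, CCND3, CDK4 and CDK6, and held no entry for CCND1 and CCND2. The 2 kinase promoters are shown because CDK4 and CDK6 moved in opposite directions in H2052. The stretches are upstream bases outside annotated exons, 113 bases for CDK4 (chr12:57752448-57752560, minus strand) and 250 for CDK6 (chr7:92836574-92836823, minus strand), both 5′ to 3′ on the strand of the gene. The CDK4 stretch lies inside the span of the longer gene model. Capitals mark the E-box CACGTG and the GC box GGGCGG on either strand.
CDK4: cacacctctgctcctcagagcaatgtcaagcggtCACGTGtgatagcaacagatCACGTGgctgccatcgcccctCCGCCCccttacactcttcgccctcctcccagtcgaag
CDK6: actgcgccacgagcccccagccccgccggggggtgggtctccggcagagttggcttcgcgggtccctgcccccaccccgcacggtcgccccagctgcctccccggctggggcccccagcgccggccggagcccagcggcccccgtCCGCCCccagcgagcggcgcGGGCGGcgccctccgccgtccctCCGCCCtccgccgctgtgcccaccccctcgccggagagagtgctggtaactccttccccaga

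In the 250 bases before the RefSeq start, CDK4 had 3 E-boxes and CDK6 and CCND3 had 0, while 6.49% of 27305 promoters had at least 1. Of these E-boxes 2 lie in the printed stretch. The GC box was found 3 times in CDK4, 3 times in CDK6 and 5 times in CCND3, and in 42.3% of all promoters. TTTNNCGC, a form of the E2F site, was found in 0 of the 3 windows and in 5.93% of all promoters. The AP-1 letters TGANTCA were in 0 of 3 and in 6.60% of all. The CRE letters TGACGTCA were in 0 of 3 and in 1.77%, the TEAD letters GGAATG in 0 of 3 and in 11.9%, and the TATA box TATAAA in 0 of 3 and in 11.1%. Both strands were searched. A match is a run of letters and not a binding site.

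Before drug, CCND1 spanned the widest range of levels among the well expressed members. Cyclin D1 binds CDK4 and CDK6 downstream of growth factor and adhesion signals. The DMSO libraries of H2052 had 31753 and 20388 CP20M and those of H28 had 17978, 9533 and 22292. MSTO-211H had 6193, 5378 and 8101 CP20M and H2452 had 5066, 6303 and 5755. In the resistant lines, MPP89 had 2656 and 2492 CP20M, and MeT-5A had 535 in DMSO and 767 untreated. Every control library of a resistant line was therefore below every control library of a sensitive line. The mean of H2052 was 40.05-fold that of MeT-5A, the libraries of H2052 and H28 overlapped, as did those of MSTO-211H and H2452, and the other neighbours in the order did not overlap. The resistant lines were lower by -3.09 on the log2 scale of line means, with p = 0.0667 in a two-sided exact permutation test, which is the smallest p that 6 lines allow.

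CCND2, whose product can stand in for cyclin D1 in several tissues, was close to unexpressed in 3 of the 6 lines. MSTO-211H had 557, 2253 and 703 CP20M in DMSO, H2052 had 204 and 401, and H28 had 18, 50 and 28. H2452 had 8, 2 and 3 CP20M, which is an estimated 6, 1 and 2 reads. MPP89 had 4 and 4 CP20M, and MeT-5A had 5 in both control libraries. The 3 lowest lines overlapped, and the order above them held without overlap. DMSO replicate 2 of MSTO-211H was more than 3-fold above the other replicates of its line, whereas its MKI67 (1555 CP20M) was the lowest of the 3. The part of the lower cycling marker in that CCND2 level was not tested.

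CCND3 and CDK4 varied far less. CCND3, whose product is the D-type cyclin of many differentiated and lymphoid cells, had line means from 676 ± 252 CP20M in MSTO-211H (SD, n = 3) to 1789 ± 489 in H28 (SD, n = 3), a 2.65-fold range. MPP89 overlapped H28 at the top, H2452 overlapped MeT-5A, and H2052 overlapped MSTO-211H. CDK4 ranged 1.78-fold, from 2443 ± 505 CP20M in MPP89 (SD, n = 2) to 4356 ± 212 in MSTO-211H (SD, n = 3). For CDK4 the only neighbours without overlap were H2052 and MeT-5A. CDK6 ranged 5.99-fold, with H28 highest at 8730, 11094 and 20128 CP20M and H2052 lowest at 2178 and 2268. MeT-5A and MSTO-211H overlapped in CDK6, and all other neighbours were separate. All 5 genes differed among the 6 lines (limma F test, FDR under 0.05), but so did 96.3% of all tested genes. In the permutation test over lines, the resistant lines differed from the sensitive ones by -2.96 in CCND2 (exact p = 0.2), 0.58 in CCND3 (exact p = 0.267), -0.55 in CDK4 (exact p = 0.0667) and 0.07 in CDK6 (exact p = 1), and the last of these turned negative with median-of-ratios scaling.

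**Figure D1:**
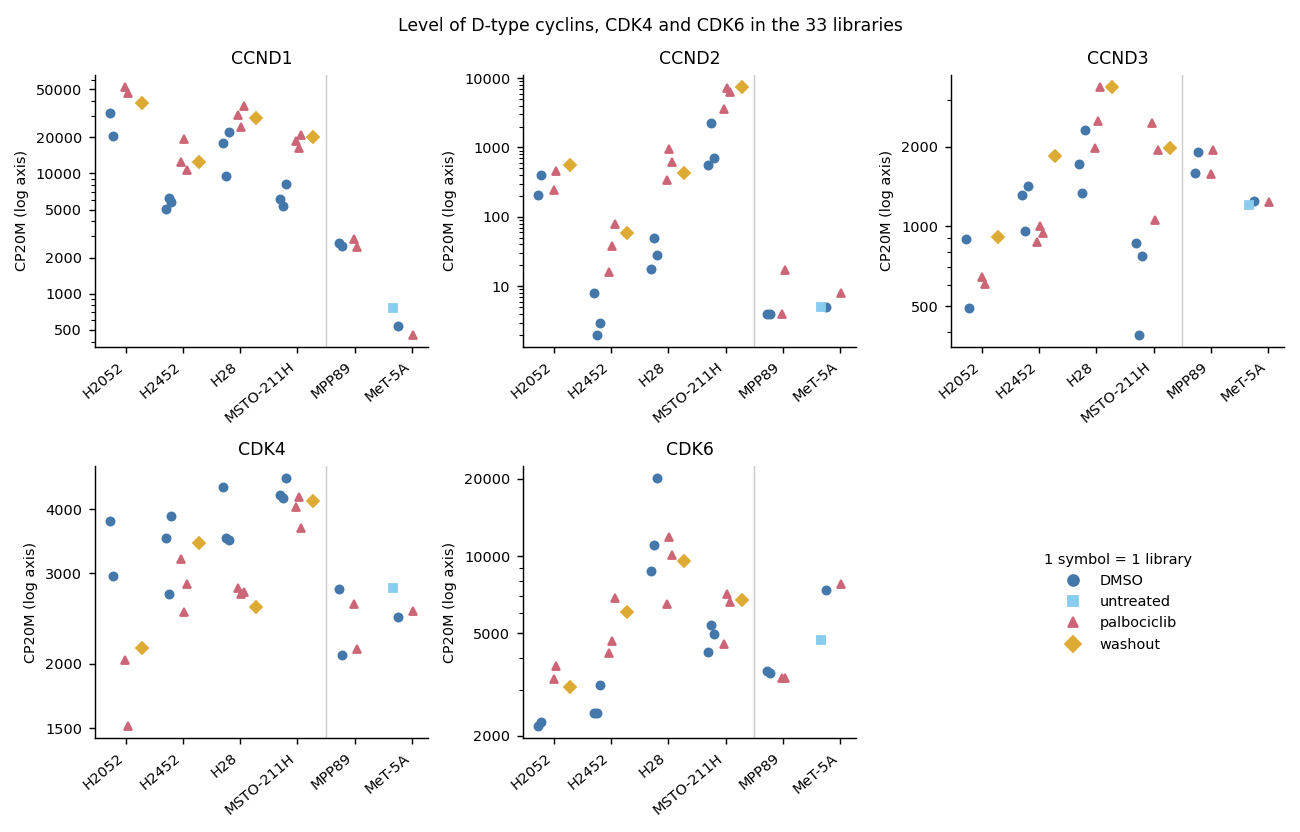
Level of each gene in CP20M on a log axis, by line, with 1 symbol per library (circle DMSO, square untreated, triangle palbociclib, diamond washout) and the sensitive lines to the left of the grey bar. The CCND1 control libraries lie at 5066 to 31753 CP20M in the sensitive and 535 to 2656 in the resistant lines, and CCND2 lies at 2 to 8 CP20M in the controls of H2452, MPP89 and MeT-5A.

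CCND1 rose after palbociclib over the sensitive lines and was called in 3 of the 4 on their own, the exception being H2052 (0.97, limma adjusted p = 0.0614, 2 pairs). H2052 went from 31753 and 20388 CP20M to 52478 and 47136, and H2452 from 5066, 6303 and 5755 to 12474, 19219 and 10773, in order of experiment. H28 went from 17978, 9533 and 22292 to 30574, 24400 and 36254, and MSTO-211H from 6193, 5378 and 8101 to 18467, 16184 and 20929. Within each of these lines every palbociclib library was above every DMSO library. The share of all tested genes that separate in this way was not counted, here or for the other members. The change over the 11 pairs was 1.19 (SE 0.10, 95% interval 0.97 to 1.41, limma adjusted p = 2.46e-06), higher in 11 of 11 pairs, with single ratios from 1.63 to 3.05. That fit counts the experiments of a line as replicates. With line means as units the limma adjusted p was 0.00814. MPP89 had 2656 and 2492 CP20M in DMSO and 2861 and 2437 with drug, and MeT-5A had 535 and 456. The change over the 3 resistant pairs was -0.05 (SE 0.06, limma adjusted p = 0.856). The difference of the change between sensitive and resistant lines was 1.24 (SE 0.20, limma adjusted p = 0.00283), and it kept its call in 22 of 22 alternatives. None of these alternatives took lines as units, of which there were 4 sensitive and 2 resistant. Among the sensitive lines the change of CCND1 did not differ detectably (F test, limma adjusted p = 0.16).

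CCND2 was also higher in 11 of 11 sensitive pairs, but by very different amounts, and was called within H28 and MSTO-211H. In H28 it went from 18, 50 and 28 CP20M to 336, 962 and 616, a ratio of at least 18.7 in every pair. In MSTO-211H it went from 557, 2253 and 703 CP20M to 3569, 7292 and 6401. Both lines were separated fully between DMSO and drug. In H2452 it went from 8, 2 and 3 CP20M to 16, 38 and 78, from a start of a few reads (limma adjusted p = 0.0605, not called). In H2052 it went from 204 and 401 CP20M to 244 and 455, a change of 0.21 (SE 0.12, limma adjusted p = 0.266) with overlapping groups. Over the 11 pairs the change was 2.27 (SE 0.38, limma adjusted p = 0.00033), and it was 1.65 without H28. With line means as units the limma adjusted p was 0.0462. The lines differed from each other in this change (F test, limma adjusted p = 0.0033). The resistant lines stayed low, with 4 and 17 CP20M in MPP89 and 8 in MeT-5A after drug. Their change was 0.40 (SE 0.19, limma adjusted p = 0.689), and the difference between sensitive and resistant lines was 1.86 (SE 0.77, limma adjusted p = 0.133), not called. In bulk libraries, more RNA per cell and more cells that express a gene cannot be told apart.

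CCND3 rose in MSTO-211H, where it went from 866, 390 and 773 CP20M to 2446, 1053 and 1935. That change was 1.40 (SE 0.08, limma adjusted p = 0.0349), with ratios from 2.503 to 2.824. In H28 CCND3 had 1717, 1340 and 2309 CP20M in DMSO and 1982, 2505 and 3344 with drug, higher in 3 of 3 pairs but not called (0.55, limma adjusted p = 0.0749). In H2452 it had 1317, 957 and 1423 CP20M in DMSO and 871, 1001 and 944 with drug (-0.37, limma adjusted p = 0.154). H2052 had 895 and 490 CP20M in DMSO and 645 and 604 with drug, 1 pair lower and 1 higher. The lines differed (F test, limma adjusted p = 0.00166), and the change over all 11 pairs was 0.41 (SE 0.21, limma adjusted p = 0.112). This value rested on the choice of lines, since it was 0.04 without MSTO-211H and 0.71 without H2452, where it was called (limma adjusted p = 0.0202). It was also called with median-of-ratios scaling (0.61, limma adjusted p = 0.024).

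CDK4 was lower after palbociclib in 10 of 11 sensitive pairs. H2052 went from 3800 and 2963 CP20M to 2035 and 1514, a change of -0.93 (SE 0.07, limma adjusted p = 0.0359). The median of all tested genes in H2052 was -0.24, and the CDK4 change there ran from -0.93 to -0.62 over the alternatives. H28 went from 4423, 3521 and 3483 to 2806, 2732 and 2757, a change of -0.45 (limma adjusted p = 0.0437) that stayed under 1.5-fold. H2452 had 3520, 2742 and 3886 CP20M in DMSO and 3199, 2521 and 2865 with drug, and MSTO-211H had 4270, 4201 and 4597 and then 4040, 4224 and 3679. The groups overlapped in these last 2 lines and were separate in H2052 and H28. Over the 11 pairs the change was -0.39 (SE 0.09, limma adjusted p = 0.00334), under the fold threshold and so not called. With line means as units the limma adjusted p was 0.0847. The median of all tested genes was -0.11 in this comparison and moved up by 0.17 with median-of-ratios and by 0.11 with upper-quartile scaling. Relative to such a shift the CDK4 change shrank to -0.20 (limma adjusted p = 0.0763) with median-of-ratios scaling. In H2452 the uncalled CDK4 change went from -0.23 to 0.025 with upper-quartile scaling. In MSTO-211H it went from -0.13 to 0.043 with median-of-ratios scaling, also uncalled. The lines differed in the change of CDK4 (F test, limma adjusted p = 0.00901), although the call was lost without H2052 replicate 2 (limma adjusted p = 0.0548).

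CDK6 rose in 2 sensitive lines and had no call in H28. It rose in H2052, from 2178 and 2268 CP20M to 3310 and 3740 (0.66, SE 0.08, limma adjusted p = 0.039). It rose in H2452, from 2448, 2440 and 3145 CP20M to 4200, 4657 and 6882 (0.94, SE 0.09, limma adjusted p = 0.0138). Both lines were without overlap between DMSO and drug. MSTO-211H had 4216, 5379 and 4996 CP20M in DMSO and 4541, 7111 and 6642 with drug (0.31, limma adjusted p = 0.111). H28, the line with the most CDK6, had 8730, 11094 and 20128 CP20M in DMSO and 6528, 11929 and 10128 with drug (-0.43, limma adjusted p = 0.234). DMSO replicate 3 of H28 was the highest of all 33 libraries. The lines differed (F test, limma adjusted p = 0.00478), and the change over 11 pairs was 0.34 (SE 0.16, limma adjusted p = 0.0999) with H28 and 0.63 (limma adjusted p = 0.00124) without it, where it was called.

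Read together by line, CCND1 was called higher in H2452, H28 and MSTO-211H, CCND2 in H28 and MSTO-211H, CCND3 in MSTO-211H, and CDK6 in H2052 and H2452, while CDK4 was called lower in H2052. Called genes made up 4.67% of tested genes for rises and 13.0% for falls in H2052, while rises took 6.04% for H2452, 5.89% for H28 and 5.90% for MSTO-211H. Over all sensitive lines 2 of 5 members were called higher, against 5.58% of tested genes, and 0 of 5 lower, against 9.37%. With 3 pairs a line, every call in H2452, H28 and MSTO-211H was lost when any of the line's experiments was left out. H2052, with 2 pairs, could not be refitted without a pair. In H2052, both kinase calls were lost with no filter on low values, with upper-quartile scaling and with eBayes without trend (limma adjusted p from 0.05 to 0.0652). CDK4 also lost its H2052 call without the replicate block (limma adjusted p = 0.0539) and CDK6 with a pseudocount of 1 (limma adjusted p = 0.0501). The same block decided CCND1 in H28 (limma adjusted p = 0.132 without it) and CCND3 in MSTO-211H (limma adjusted p = 0.0733 without it), while CCND2 in H2452 was called without it (limma adjusted p = 0.0481). MPP89 and the 2 resistant lines together had 0% of genes called by limma in either direction, with 918 and 1258 genes at an unadjusted p under 0.05. For the difference between classes, 1 of 5 members was called higher in the sensitive lines, against 1.56% of genes. Among the sensitive lines 4 of 5 members differed, against 37.1% of genes. Without the replicate block the F test no longer called CDK4 (limma adjusted p = 0.0715) or CDK6 (limma adjusted p = 0.0713).

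**Figure D2:**
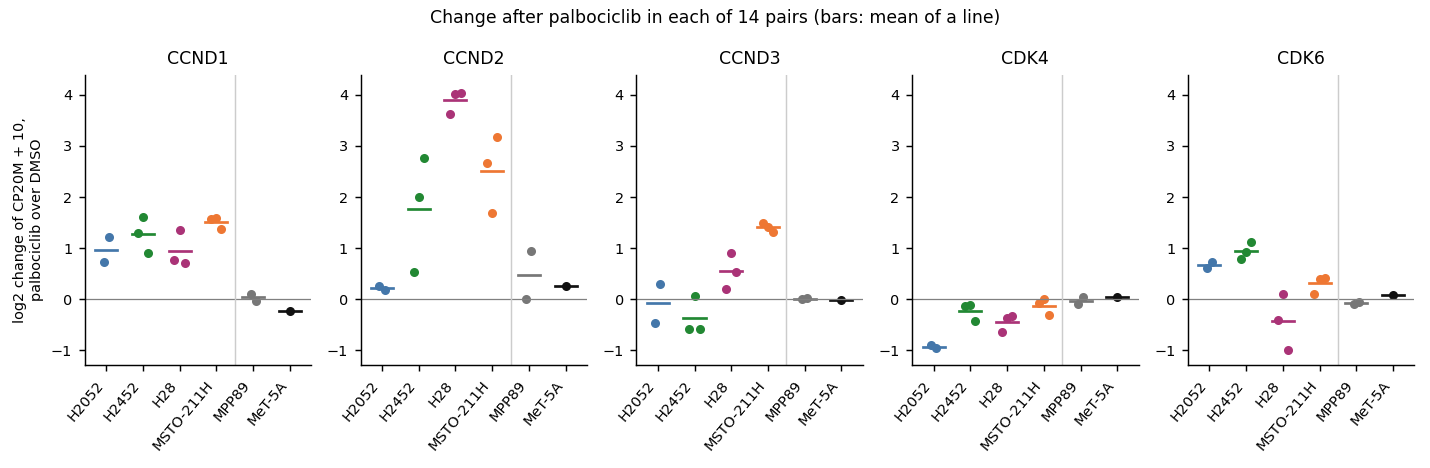
Change of log2(CP20M + 10) from DMSO to palbociclib in each of the 14 pairs, 1 point per pair, with a bar at the mean of each line and the sensitive lines to the left of the grey bar. CCND1 is above 0 in all 11 sensitive pairs, CCND2 is above 3.6 in every H28 pair, and CDK6 is above 0.6 in H2052 and H2452 and reaches -0.99 in H28.

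To compare the cyclins with each other, levels were divided by the union exon length of each gene, from 3.09 kb for CDK4 to 12.24 kb for CDK6. Shares and ratios are descriptions of mRNA and were not tested. They rest on all annotated exons of a gene and not on the transcripts present in these cells, which can shift them. On the CP20M per kb scale, CCND1 made up 97.2% ± 0.297 (SD, n = 2) of the D-type cyclin mRNA in control H2052. The share of CCND1 was 91.3% ± 1.76 (SD, n = 3) for the controls of H28, 84.7% ± 3.61 (SD, n = 3) for H2452 and 83.5% ± 6.31 (SD, n = 3) for MSTO-211H. CCND3 took a larger part in the resistant lines, with 35.9% ± 4.12 (SD, n = 2) in MPP89 and 61.0% ± 6.56 (SD, n = 2) in MeT-5A, where it was the leading D-type cyclin. For MeT-5A the control values here pool the untreated library, with a CCND3 share of 56.4%, and the DMSO library, with 65.7%. CCND2 had a share above 2% only in H28 with drug, in 1 library at 2.12%, and in MSTO-211H, where the mean was 9.41% ± 8.37 (SD, n = 3) in DMSO and 14.7% ± 5.46 (SD, n = 3) with palbociclib. DMSO replicate 2 set much of that spread, since the DMSO shares were 4.585%, 19.07% and 4.575% and those with drug 9.406%, 20.31% and 14.48%, and the groups overlapped. So even after its 18.7-fold or larger ratios in H28, CCND2 supplied 0.618% to 2.12% of the D-type cyclin mRNA there.

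The summed D-type cyclin level per kb rose with CCND1. Its mean went from 5634 to 10610 CP20M per kb in H2052, from 1413 to 3142 in H2452, from 3801 to 6920 in H28 and from 1641 to 4926 in MSTO-211H. In the resistant lines it was 845 and 863 CP20M per kb in MPP89 and 350 and 311 in MeT-5A, where DMSO alone had 329. The ratio of this sum to CDK4 plus CDK6 went from 4.37 to 12.3 in H2052, from 1.10 to 2.39 in H2452, from 1.61 to 4.20 in H28 and from 0.907 to 2.78 in MSTO-211H, with no overlap between the libraries of the 2 groups in any of these lines. It was 0.794 and 0.832 in MPP89, and 0.261 and 0.213 in MeT-5A, where DMSO alone had 0.235. The ratio of CDK6 to CDK4 went from 0.169 to 0.518 in H2052 and from 0.202 to 0.469 in H2452, again without overlap. H28 stayed highest by mean, at 0.919 ± 0.493 (SD, n = 3) in DMSO and 0.874 ± 0.262 (SD, n = 3) with drug. Its libraries overlapped those of other lines. The lowest H28 library had 0.499 in DMSO and 0.588 with drug, below MeT-5A at 0.7575 in DMSO and 0.777 with drug.

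**Figure D3:**
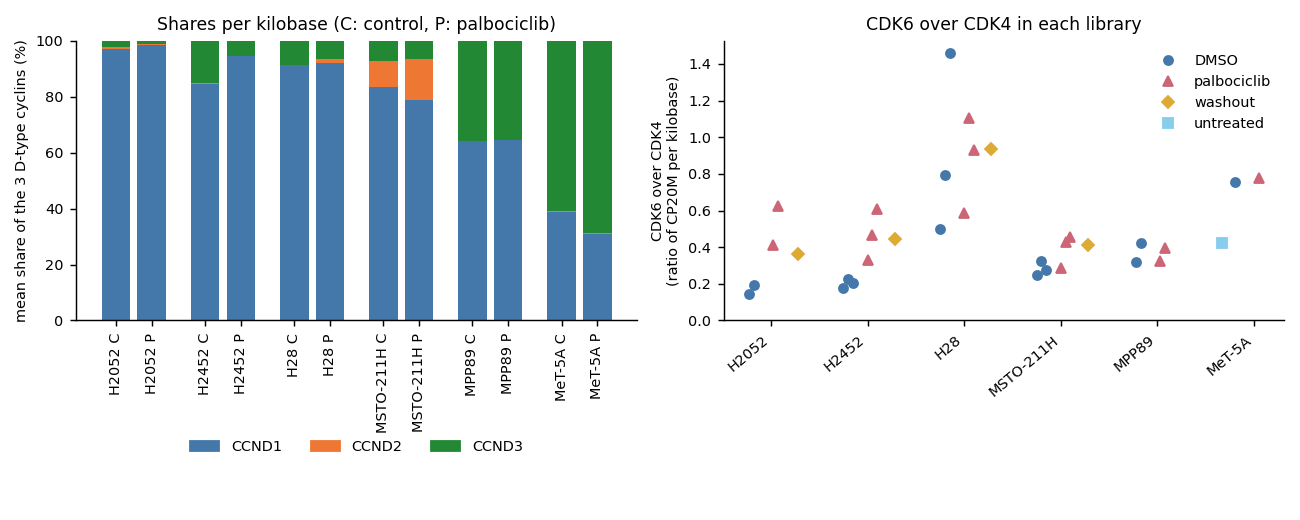
Left, mean share in percent of CCND1, CCND2 and CCND3 in the sum of the 3 D-type cyclins per kilobase, for control (C) and palbociclib (P) libraries of each line. Right, CDK6 over CDK4 as a ratio of CP20M per kilobase in each library; CCND3 takes 61.0% in control MeT-5A, and the ratio reaches 1.46 in 1 DMSO library of H28 and lies at 0.145 and 0.194 in DMSO libraries of H2052.

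Washout asked which changes were still present 48 h after the drug was taken away. The labels give 10 days for the DMSO and palbociclib libraries of these experiments, and 10 days plus 48 h for washout. They name no DMSO library of that longer time, and the part of time in culture was not tested. MKI67 rose to 6920, 8328, 4824 and 3093 CP20M in H2052, H2452, H28 and MSTO-211H, from 806, 177, 1816 and 777 with drug in the same experiments. The DMSO libraries of these experiments had 4725, 7680, 10717 and 5593 CP20M. MKI67 after washout was therefore above DMSO in H2052 and H2452 and below it in H28 and MSTO-211H. CCND1 moved less than MKI67 between drug and washout. In H2052 it had 20388 CP20M in DMSO, 47136 with drug and 38764 after washout. For H2452 the same order of conditions gave 5755, 10773 and 12371 CP20M, for H28 22292, 36254 and 29121, and for MSTO-211H 8101, 20929 and 19974. Every washout library was above its DMSO library, by ratios from 1.31 in H28 to 2.47 in MSTO-211H. CCND1 after washout was above DMSO by 0.93 (SE 0.15, limma adjusted p = 0.00807) and differed from palbociclib by -0.12 (SE 0.15, 95% interval -0.45 to 0.22, limma adjusted p = 0.821).

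CCND2 likewise stayed high. It had 703 CP20M in DMSO, 6401 with drug and 7466 after washout in MSTO-211H, and 28, 616 and 432 in H28. In H2452 it had 3, 78 and 58 CP20M and in H2052 it had 401, 455 and 553. It was above DMSO by 2.44 (SE 0.52, limma adjusted p = 0.0197) and differed from palbociclib by -0.09 (SE 0.52, 95% interval -1.25 to 1.06, limma adjusted p = 0.972). CCND3 after washout was above DMSO in 4 of 4 lines, at 914, 1844, 3356 and 1966 CP20M in H2052, H2452, H28 and MSTO-211H, with a change of 0.78 that was not called (SE 0.24, limma adjusted p = 0.0632). In H2452 that was also 1.95-fold its value with drug.

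CDK4 after washout had 2151, 3439, 2584 and 4144 CP20M in the same order of lines, below DMSO in 4 of 4 lines (-0.30, SE 0.12, limma adjusted p = 0.118) and above palbociclib in 3 of 4 (0.21, SE 0.12, limma adjusted p = 0.502). CDK6 had 3098, 6081, 9587 and 6727 CP20M (0.19 against DMSO, SE 0.30, limma adjusted p = 0.715). In H28 that was 0.476 of the DMSO replicate with the highest CDK6. Of the 5 members 2 were called higher after washout than in DMSO, against 2.81% of genes. Between washout and palbociclib limma called 0 of 5, against 1.40% of genes, and 0 of 5 had an unadjusted p under 0.05. The 3 conditions share their libraries, there was 1 washout library per line, and the calls against DMSO were lost without the line block and, for CCND1, without H2052 or MSTO-211H and, for CCND2, without H2452, H28 or MSTO-211H.

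**Figure D4:**
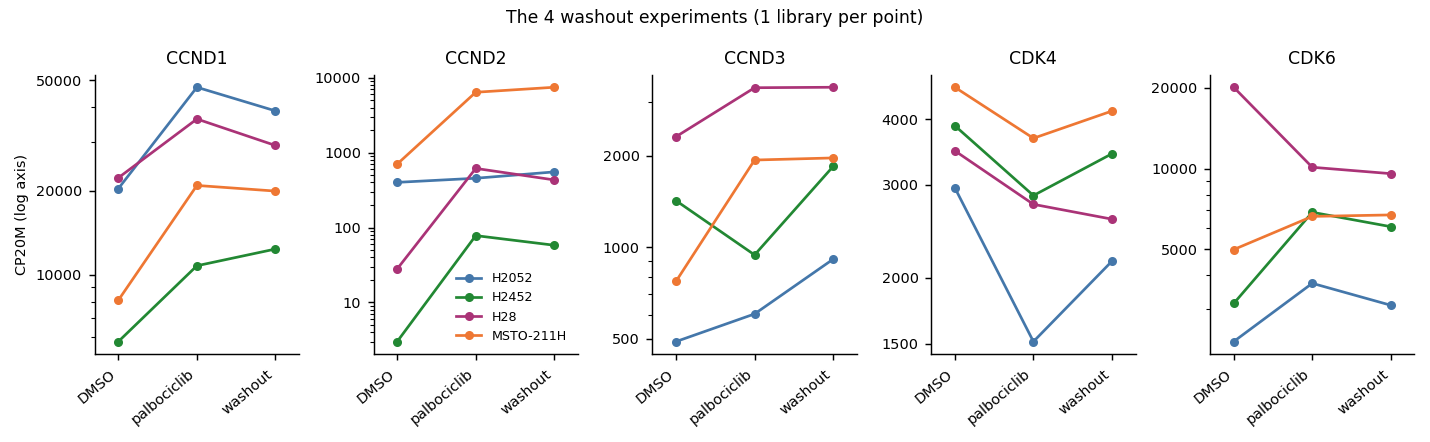
CP20M on a log axis in DMSO, palbociclib and washout of the 4 washout experiments, 1 library per point and 1 line joined per cell line. CCND1 is higher after washout than in DMSO in 4 of 4 lines, and CDK4 lower in 4 of 4.

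The other genes of the pathway were read from a list of 29 genes by role, all of them tested. After palbociclib over the sensitive lines 0 of 29 were called higher and 7 lower, against 5.58% and 9.37% of all tested genes, and their median change was -0.22 against -0.11 for all tested genes. Among the INK4 inhibitors, which bind CDK4 and CDK6, CDKN2C (p18) went from a mean of 515 CP20M in DMSO to 73.9 with drug. It fell by 2.51 on the log2 scale (SE 0.15, limma adjusted p = 1.81e-07) and in 11 of 11 pairs. CDKN2A was at 0 CP20M in all control libraries of H2052, H2452 and H28 and was not called (-0.19, limma adjusted p = 0.21). Its means over the sensitive pairs were 7.09 CP20M in DMSO and 3.36 with drug. CDKN2B had a mean of 0 CP20M in both and could not be called. CDKN2A and CDKN2B passed the filter only through libraries outside these pairs, and both count among the 29. Of the CIP/KIP proteins, which both inhibit CDK2 and help assemble cyclin D complexes, CDKN1C (-0.88, limma adjusted p = 0.00076) and CDKN1B (-0.80, limma adjusted p = 2.85e-05) fell in 11 of 11 pairs, while CDKN1A had -0.01 (limma adjusted p = 0.953).

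Of the substrates of the kinases, FOXM1, a transcription factor of G2 and M phase genes, fell by 2.44 (limma adjusted p = 7.81e-06) and RBL1 (p107) by 1.14 (limma adjusted p = 0.000176), each in 11 of 11 pairs, whereas RB1 had -0.22 (limma adjusted p = 0.042, under 1.5-fold). CCNE2 fell by 1.23 (limma adjusted p = 9.4e-05) and its partner CDK2 by 1.14 (limma adjusted p = 0.00207), while CCNE1 had 0.02 (limma adjusted p = 0.938). No gene of the CDK-activating kinase (0 of 3), of the CDK4 chaperones (0 of 3) or of the cyclin D turnover machinery (0 of 8) was called. Under 1.5-fold, CDC37 (0.37, limma adjusted p = 0.000522) and GSK3B (0.24, limma adjusted p = 0.0014) were higher in 11 of 11 pairs. Also under 1.5-fold, MNAT1 (-0.46), CCNH (-0.22), HSP90AB1 (-0.28) and CUL4A (-0.23) were each lower in 10 of 11 pairs (limma adjusted p from 0.00185 to 0.0122). CDKN2C, FOXM1 and CCNE2 were also called higher after washout than with drug, by 2.08, 2.27 and 1.41 (limma adjusted p from 0.0119 to 0.0241).

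Several members share their locus with a gene on the other strand. LTO1, listed as ORAOV1 in the matrix, overlaps the annotation of CCND1 with 497 shared exon bases. It rose with CCND1, by 0.99 (SE 0.08, limma adjusted p = 2.04e-06) and in 11 of 11 sensitive pairs, from 4652 to 10136 CP20M in H2052 experiment 2 for example. It was the gene most like CCND1, with r = 0.98 over 33 libraries and r = 0.97 over the 14 pairs. Its level was 20.8% to 111% of that of CCND1. TSPAN31 overlaps CDK4 with 1369 shared exon bases and was the most like CDK4 in both measures (r = 0.96 and 0.97), with a change of -0.33 (SE 0.07, limma adjusted p = 0.00217, under 1.5-fold). CDK6-AS1, listed as AC002454.1, overlaps CDK6 and was the most like CDK6 in level (r = 0.87) at 0.374% to 1.38% of it. The gene most like CCND2 in level was listed as CCND2-AS1 (ENSG00000256164, r = 0.96). That identifier is not in GENCODE 44, so its position is not given. It had 41, 124 and 49 CP20M in DMSO and 248, 400 and 442 with drug in MSTO-211H. In H2052 it was lower in both pairs, from 20 to 10 and from 38 to 29 CP20M, where CCND2 was higher. Over the 11 sensitive pairs it was higher in 7 and lower in 2. The library kit keeps strand, but the strand setting of the counting is not given in the sources used here, so reads of these partners cannot be told apart. MARCHF9 at CDK4 (35 to 979 CP20M) and the GENCODE 44 gene CCND2-AS1 (ENSG00000255920, 0 to 10 CP20M) also overlap their member on the other strand.

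**Figure D5:**
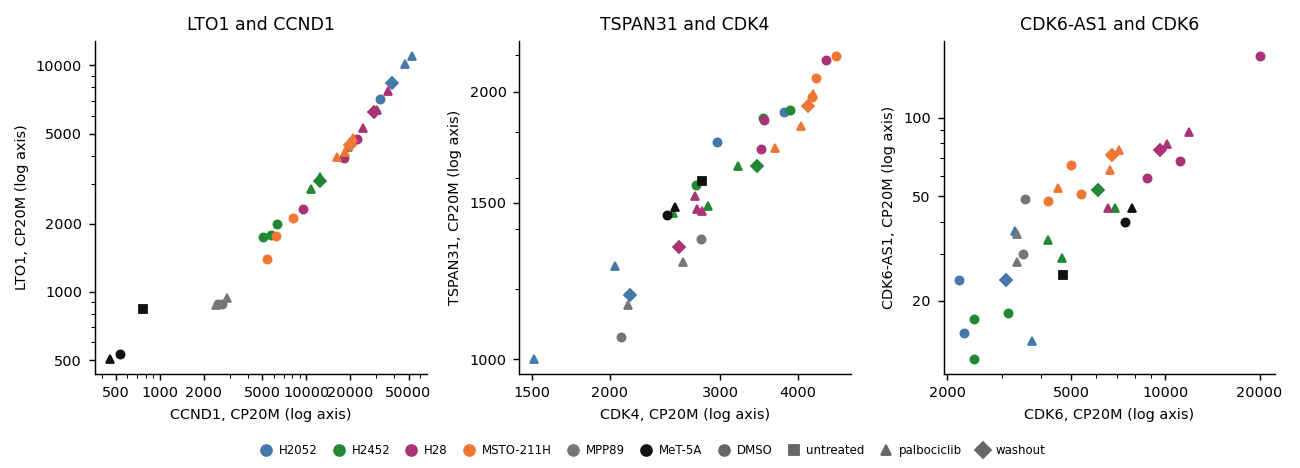
CP20M of LTO1, TSPAN31 and CDK6-AS1 against CP20M of the member they overlap (CCND1, CDK4, CDK6), both on log axes, 1 symbol per library, with colour for the line and shape for the condition. Each gene follows its member over the 33 libraries, with Pearson r of 0.98, 0.96 and 0.87 on the log2(CP20M + 10) scale.

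Beyond these partners, the genes most like a member in level over the 33 libraries were CFLAR-AS1 and AMPD3 for CCND1 (r = 0.92 both), AACS and ZMAT3 for CCND2 (r = 0.91 and 0.89), BAK1, FOXP4 and ANKRD52 for CCND3 (r = 0.81, 0.81 and 0.80), C1QBP and FARSB for CDK4 (r = 0.90 and 0.89), and AKAP12 and FAM162A for CDK6 (r = 0.84 both). In the change over the 14 pairs they were C4orf36 and NABP1 for CCND1 (r = 0.86 and 0.85), ADCY5, KIAA1217 and PIK3R3 for CCND2 (r = 0.93, 0.91 and 0.89), ARPC5L, AK5 and MYEOV for CCND3 (r = 0.95, 0.95 and 0.94), BATF3 and MEPCE for CDK4 (r = 0.96 and 0.94), and TMEM79, ARHGEF34P and INHBB for CDK6 (r = 0.93, 0.92 and 0.92). Between members, the highest correlation of levels was 0.59, for CCND1 with CCND2. These values are the tops of 17803 genes, and their points share lines, libraries and experiments.

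Of the tested genes within 500 kb of CCND1, 2 of 4 were also highest in H2052, LTO1 and ANO1 (265 CP20M there and 28 in the next line). H2052 was the highest line for 13% of all tested genes. Of those near CDK4, 14 of 30 shared its highest line, MSTO-211H, among them TSPAN31, AGAP2 and TSFM, and of those near CCND2 4 of 8 did, DYRK4 and NDUFA9 among them. MSTO-211H was the highest line for 17% of all genes. For CDK6 it was 4 of 16, with CYP51A1 and ANKIB1, and for CCND3 1 of 13, TFEB, both with H28, the highest line for 16.8% of genes. These counts include LTO1, TSPAN31, MARCHF9 and CDK6-AS1, which overlap their member. NDUFA9 and another counted entry both lie 343.7 kb from CCND2, so the counted entries may not all be separate loci. Some matches were near ties with the next line, MARS1 and DCTN2 near CDK4 among them.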

How the data were processed

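RNA-seq libraries of 6 established cell lines were analysed. Per the labels and methods, the authors made directional libraries (NEBNext Ultra II) and sequenced them as paired ends on a NovaSeq instrument. The submitters' processing notes name Trimmomatic 0.36, STAR 2.5.3, HTSeq 0.9.1 and DESeq2, with GRCh38 and the Ensembl 90 annotation. The deposited values are CP20M, a normalized score scaled by the authors to library size and rounded up to whole numbers, with column totals from 20007662 to 20021400. They are not raw counts, so DESeq2 was not used here.

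Genes with at least 100 CP20M in 1 of 33 libraries were kept (17803). Values were fitted as log2(CP20M + 10) with limma 3.58.1 (trend) in R 4.3.3, with the experiment as a block. Deviations from group means correlated between libraries of an experiment (r from 0.18 to 0.78), and the methods pair them. Calls needed an FDR under 0.05 and a fold change above 1.5, without the fold for F tests and differences between classes. Line levels were also compared with exact permutation tests over 15 choices of 2 lines. The functions were tested on simulated data. Replicates are the experiments of a line, so p-values of single lines and of the F test of change measure the spread between experiments. In the fits over the sensitive lines, the resistant lines or both classes, differences between lines add to that spread. Washout fits hold 1 library per line and condition, so their p-values measure the spread between lines. The permutation p also rests on lines.

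The named genes were the 5 members, the list genes RB1, CDKN2A and CCNE1 with up to 2 called genes per role, the 3 most correlated genes per member and measure, overlapping genes and up to 3 neighbours. CDKN1A was named after its values were seen. The members and lists were chosen with earlier results of these data known. Every limma fit was repeated with pseudocounts of 1 and 50, with 2 other scalings (median-of-ratios, upper-quartile) and with untrended eBayes. The permutation test was repeated with these pseudocounts and scalings and without each library. Where it applied, limma fits were also repeated without the replicate block, with other filters, without each pair or library, and with line means or all lines together. Lines were left out in turn only in the fit over the sensitive lines and the washout fits. H2052 and MPP89, with 2 pairs each, could not be refitted without a pair. The depth estimate covers 23 libraries, and no interval was computed from it. Positions are from GENCODE 44, a later annotation than that of the authors, and figures were drawn with matplotlib 3.10.9.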

Additional observations from a re-analysis of the deposited data

Results flagged for a closer look

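Results were taken up here when the change differed between groups of lines by a test of the difference itself. The change of CCND1 after palbociclib was 1.24 higher on the log2 scale in the sensitive than in the resistant lines (limma interaction with experiments as replicates, adjusted p = 0.00283). CCND1 rose in 11 of 11 sensitive pairs and in 1 of 3 resistant pairs. The change differed among the 4 sensitive lines for CCND2 (limma F test, adjusted p = 0.0033), CCND3 (adjusted p = 0.00166), CDK4 (adjusted p = 0.00901) and CDK6 (adjusted p = 0.00478). The line changes ran from 0.21 in H2052 to 3.90 in H28 for CCND2, from -0.37 in H2452 to 1.40 in MSTO-211H for CCND3, from -0.93 in H2052 to -0.13 in MSTO-211H for CDK4, and from -0.43 in H28 to 0.94 in H2452 for CDK6. Of 10 sets of 4 washout values, 0 held a value beyond Dixon's 95% limit for an outlying value. CDK6 in H28, at -1.07 after washout against DMSO, was the only one of the 4 lines below 0, and without H28 the change was 0.61.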

How the results depend on the processing

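Over the sensitive lines, CCND1 and CCND2 were called in 24 of 24 alternatives, with changes from 1.07 to 1.39 and from 1.65 to 2.72. Their highest limma adjusted p came with line means as units, 0.00814 for CCND1 and 0.0462 for CCND2. CCND3 became called with median-of-ratios scaling (0.61), and leaving out a line moved it from 0.044 to 0.71 and CDK6 from 0.12 to 0.63. The experiment pairs the samples. Without the replicate block the F test among sensitive lines lost CDK4 (adjusted p = 0.0715) and CDK6 (adjusted p = 0.0713), and leaving out a pair moved CDK4 from 0.00955 to 0.0548. Against DMSO, washout without the replicate block gave 0.93 for CCND1 and 2.44 for CCND2, both with limma adjusted p = 1, and CCND3 was called with median-of-ratios (0.88) and upper-quartile scaling (1.00). Leaving out a line moved washout against DMSO from 0.80 to 1.11 for CCND1, from 2.08 to 3.11 for CCND2 and from -0.064 to 0.61 for CDK6, and washout against palbociclib from -0.22 to 0.042 for CCND2. The CDK6 level of resistant against sensitive lines was -0.12 with median-of-ratios scaling and ran from -0.093 to 0.16 when a library was left out.

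Uncalled values also changed sign elsewhere. Over the resistant lines these were CCND3 with median-of-ratios scaling (-0.024), CDK4 and CDK6 with upper-quartile scaling (0.022 and 0.0042), and, leaving out a pair, CCND1 (-0.13 to 0.037), CCND3 (-0.0092 to 0.0074), CDK4 (-0.031 to 0.037) and CDK6 (-0.076 to 0.0081). Within lines, CCND3 in H2052 did so with median-of-ratios (0.23) and upper-quartile scaling (0.077). CDK4 in H2452 went from -0.23 to 0.025 with upper-quartile scaling. With median-of-ratios scaling, CDK4 in MSTO-211H went from -0.13 to 0.043 and CCND3 in MPP89 went to -0.018. The cause of these moves was not tested. Depth limits CCND2 in H2452, MPP89 and MeT-5A, where values rest on a few reads and the H2452 change ran from 0.74 with a pseudocount of 50 to 2.97 with 1.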
